A study of Homo sapiens with 4 samples.

Results

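Expression of SLFN11 and of DNA repair and checkpoint genes was described in CD166+ and CD166- cells of the human pancreatic cancer cell lines SW1990 and Panc-1. The genes were chosen by name. Of 40 listed symbols, 37 had a probe and 3 were not analysed here, and the 37 genes were represented by 67 of the 47315 probes and belong to 20044 named genes. They comprise 4 Schlafen genes, 7 genes of homologous recombination, 3 of the Fanconi pathway, 2 of mismatch repair, 5 of end joining, 5 of base excision and strand break repair, 3 of nucleotide excision repair, 1 of direct reversal and 7 of checkpoint signalling and break sensing. CD166 (ALCAM) is an adhesion molecule of the immunoglobulin superfamily, and cells of each line had been labelled with an antibody to it and separated with magnetic beads, without any drug or other treatment being compared. The 4 groups were the CD166+ and the CD166- fraction of either line, with 1 Illumina HumanHT-12 array each. There was therefore no replicate within a group, and no p-value was computed within a line.

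Schlafen genes form a family of regulators that lie side by side on chromosome 17. SLFN11 encodes a nuclear protein that is recruited to stalled replication forks and blocks them, and it is known in cancer cells for raising sensitivity to drugs that damage DNA, such as topoisomerase inhibitors and platinum compounds. The repair pathways divide the work by lesion. Homologous recombination copies a broken chromosome from its sister, end joining ligates broken ends directly, the Fanconi pathway removes crosslinks between the strands, excision pathways cut out altered bases, and the kinases ATM and ATR with their effectors CHEK1 and CHEK2 hold the cell cycle while repair proceeds.

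SLFN11 was the only one of these genes that was over 2-fold higher in CD166+ than in CD166- cells of both lines. Its normalized signal (background-corrected and quantile-normalized, in linear units of bead brightness) was 535 in SW1990 CD166+ cells and 45.8 in SW1990 CD166- cells. It was 159 in Panc-1 CD166+ cells and 69.9 in Panc-1 CD166- cells. The gene was detected on all 4 arrays (detection p under 0.01 against the negative controls), and its signal in SW1990 CD166- cells was just above 41.5, the lowest signal of any detected probe on that array. The CD166+ value was thus 11.7-fold the CD166- value in SW1990 and 2.27-fold in Panc-1, and both CD166+ populations lay above both CD166- populations. SLFN11 belongs to a gene list that the study drew up from these same arrays, so its difference is a description and not independent evidence. A second SLFN11 probe gave 198 and 37.8 in the CD166+ and CD166- cells of SW1990 and 54.5 and 40.1 in those of Panc-1, with no detection in SW1990 CD166- cells. By this probe too both CD166+ populations lay above both CD166- populations, but its Panc-1 ratio was 1.36. The order of the CD166- populations is not known from it, because 40.1 is below the 41.5 given above. The Panc-1 difference of the brighter probe, 1.18 on the log2 scale, was also below 2-fold without background correction (0.78), with a larger offset (0.89), in the deposited scaled table (0.74) and as a mean over both probes (0.81). A sorted population gives 1 value for all its cells, so a larger share of SLFN11-expressing cells and more SLFN11 RNA per cell cannot be told apart.

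A share of signal common to the CD166+ arrays was estimated from bright genes of SW1990 CD166+ cells. For 7 genes in the top 5% of SW1990 CD166+ signal that were undetected on both CD166- arrays, the Panc-1 CD166+ signal was a median of 2.95% of that in SW1990 CD166+ cells. This share of the SW1990 CD166+ signal was subtracted from the Panc-1 CD166+ array. The SLFN11 difference in Panc-1 was then 1.07 on the log2 scale, over 2-fold, by the brighter probe with the main processing. Because the genes were picked as undetected on the Panc-1 CD166- array, the share has no counterpart there. Whether signal was shared between the arrays was not tested.

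The other Schlafen genes were near the limit of detection. SLFN5 was detected only in SW1990 CD166+ cells, at 52.2, and was at least 1.26-fold higher there than in SW1990 CD166- cells. Like SLFN11, it thus had its higher signal in CD166+ cells of SW1990, and it passed 2-fold only where undetected signals were used as measured (1.01 on the log2 scale). SLFN12 was undetected in both SW1990 populations and had signals of 56.5 in Panc-1 CD166+ and 54.3 in Panc-1 CD166- cells. SLFN13 was likewise undetected in SW1990 and had 52.2 and 56.7 in the Panc-1 populations. SLFN12 and SLFN13 were thus found in Panc-1 irrespective of the sort, and they were undetected on the array on which SLFN11 was brightest. SLFN14, another family member, was detected only in SW1990 CD166+ cells, at 39.2, against 39.1 for the lowest signal of a detected probe there, and SLFNL1 was detected on no array. The 250 bases upstream of the RefSeq start of SLFN11, of SLFN12 and of OGG1, which had the widest difference of the listed repair genes in SW1990, are shown as examples of 3 of the patterns: over 2-fold higher in CD166+ cells of both lines, detected in Panc-1 only, and over 2-fold higher in CD166+ cells of SW1990 only. The sequences are from RefSeq (GRCh38.p14), 5′ to 3′ on the strand of the gene, with CG dinucleotides in capitals. They lie at chr17:35373622-35373871 (minus strand) for SLFN11, chr17:35433175-35433424 (minus strand) for SLFN12 and chr3:9749702-9749951 (plus strand) for OGG1.
SLFN11: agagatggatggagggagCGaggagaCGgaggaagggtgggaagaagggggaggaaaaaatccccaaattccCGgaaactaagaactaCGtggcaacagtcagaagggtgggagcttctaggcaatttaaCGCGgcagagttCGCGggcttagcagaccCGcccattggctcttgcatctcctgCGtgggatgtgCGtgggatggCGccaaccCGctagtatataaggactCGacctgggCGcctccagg
SLFN12: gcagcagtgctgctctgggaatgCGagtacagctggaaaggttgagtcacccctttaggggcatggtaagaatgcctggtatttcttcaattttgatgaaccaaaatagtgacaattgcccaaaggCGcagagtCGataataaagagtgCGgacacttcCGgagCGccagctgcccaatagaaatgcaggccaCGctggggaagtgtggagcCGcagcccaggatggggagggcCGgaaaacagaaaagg
OGG1: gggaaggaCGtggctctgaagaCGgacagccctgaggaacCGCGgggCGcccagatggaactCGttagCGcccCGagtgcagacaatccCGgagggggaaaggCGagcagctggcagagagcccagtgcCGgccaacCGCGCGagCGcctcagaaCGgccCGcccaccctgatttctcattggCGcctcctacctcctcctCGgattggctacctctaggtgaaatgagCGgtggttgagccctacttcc

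These upstream sequences held 15 CG dinucleotides for SLFN11, 9 for SLFN12 and 20 for OGG1, against a median of 11 over the 35116 upstream sequences of the same length in the table. As many as in SLFN11 were found in 42.9% of all of them, as many as in SLFN12 in 54.1% and as many as in OGG1 in 32.4%. Of the 37 genes, 31 had an upstream sequence, 50 in all because several genes have more than 1 start, with 3 to 36 CG dinucleotides (median 20.5). The core of the interferon response element (GAAANNGAAA, or TTTCNNTTTC on the other strand) was in none of the 50 and in 3.02% of all upstream sequences. An E2F motif (TTTGGCGC or TTTCCCGC, on either strand) was in 2 of the 50, those of FANCC and LIG1, and in 1.93% of all. These are matches of letters in a window and say nothing of the factors, and neither motif was present in the SLFN11 sequence.

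**Figure D1:**
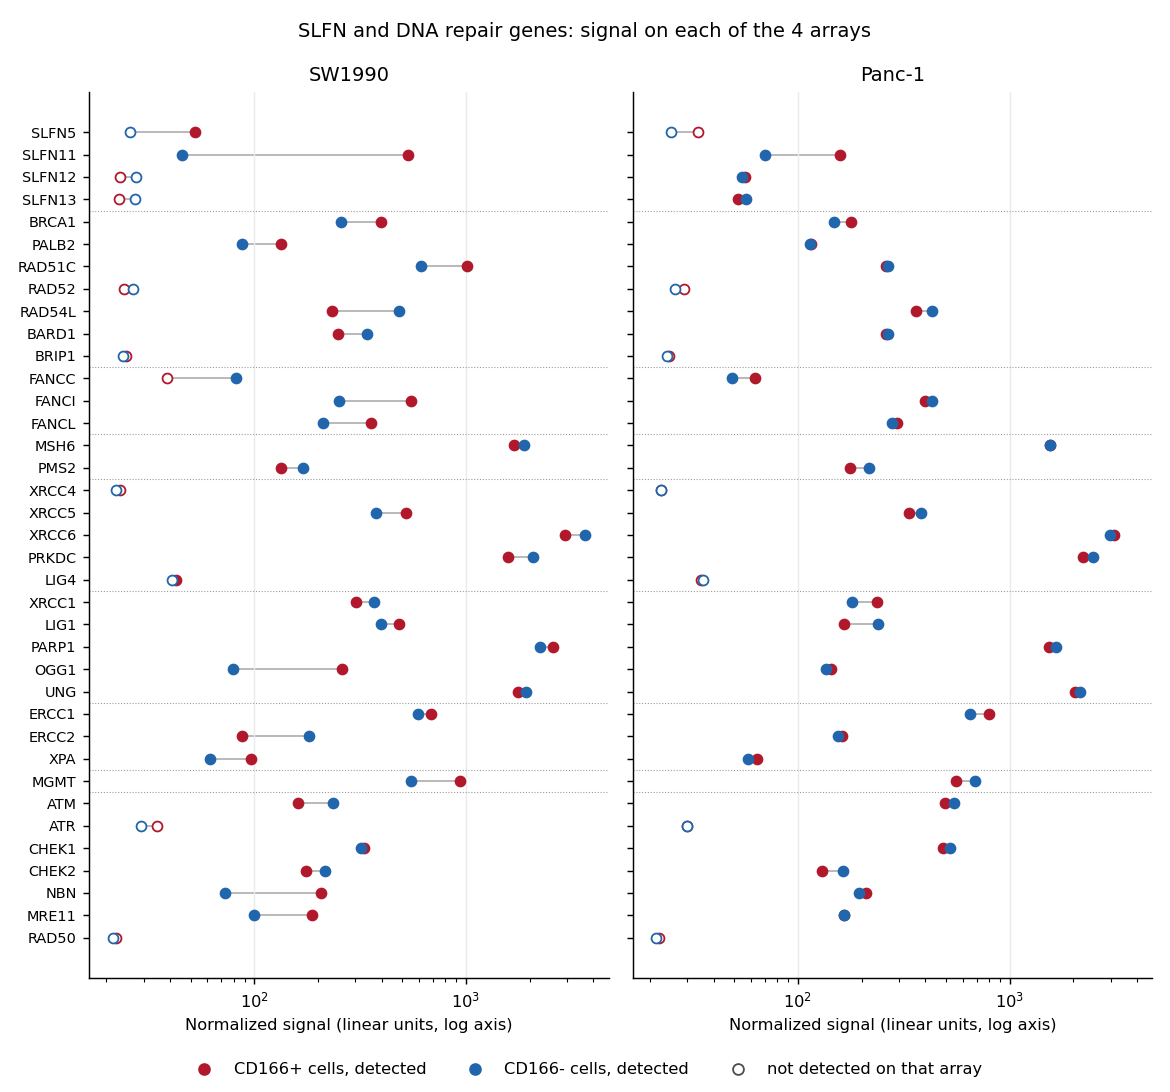
Normalized signal (log axis, linear units) of each of the 37 genes in SW1990 (left) and Panc-1 (right), with CD166+ cells in red, CD166- cells in blue and open circles where the array did not detect the gene. Dotted lines separate the roles in the order given in the text. The SLFN11 points of SW1990, 535 and 45.8, are the most widely separated pair, and the median log2 difference without regard to sign is 0.58 in SW1990 and 0.12 in Panc-1.

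Of the 37 genes, 32 were detected on at least 1 array and 27 on all 4. ATR, BRIP1, RAD50, RAD52 and XRCC4 were detected on none, so nothing is known here of their levels beyond that limit. In SW1990, 30 genes were detected on either array. Of these 30, 4 genes (SLFN11, OGG1, NBN and FANCI) were over 2-fold higher in CD166+ cells, against 13.6% of the 10783 genes detected in that line, and 3 (ERCC2, FANCC and RAD54L) were over 2-fold lower, against 14.2%. Both counts were close to the background. The median log2 difference was 0.20 over the 30 genes and -0.0036 over all genes, and the median size without regard to sign was 0.58 against 0.65. In Panc-1, 30 genes were again detected, 1 of them (SLFN11) was over 2-fold higher in CD166+ cells against 0.598% of 10532 genes, and 0 were over 2-fold lower against 0.408%. The median difference was -0.021 over the 30 genes, with a median size of 0.12 against 0.17 for all genes. Only SLFN11 was over 2-fold higher in both lines, against 0.326% of 11640 genes, and 0 were over 2-fold lower in both, against 0.103%.

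**Figure D2:**
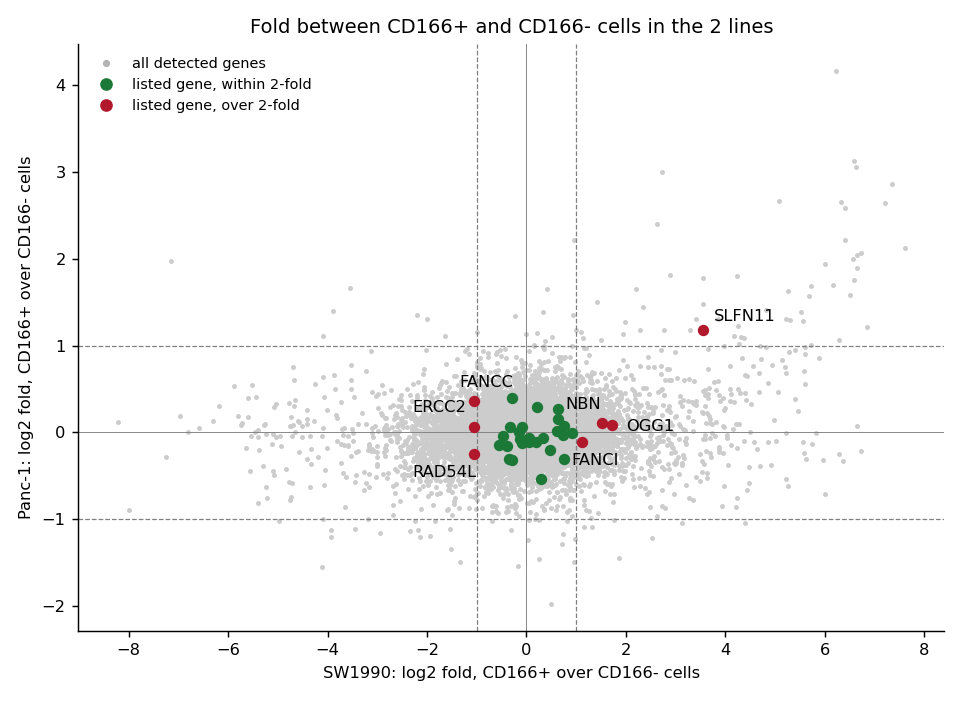
Log2 difference between CD166+ and CD166- cells in SW1990 (horizontal) and Panc-1 (vertical), with dashed lines at 2-fold. Detected genes are grey, and the 32 detected genes described here are green within 2-fold and red over 2-fold. For these 32 an undetected side is at the array floor, so a gene that neither array of a line detected sits at the difference between the 2 floors. Grey points use signals as measured and leave out genes such as CDH5, which 1 array detected. SLFN11, at 3.55 and 1.18, is the only red point outside the 2-fold band of Panc-1.

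When both lines were fitted together by limma with the cell line as a block, 0 of 10367 genes (0%) passed an adjusted p of 0.05. Of the 30 listed genes in that fit, SLFN11 alone had an unadjusted p under 0.05, and 160 of all genes did. Its mean log2 difference was 2.37 with a standard error of 0.66, and the adjusted p by limma was 0.922. With 2 pairs and 1 residual degree of freedom the fit has little power for single genes, and the smallest p of an exact two-sided permutation test of the pairs would be 0.5. The methods' t-test on the same values gave 132 genes with an unadjusted p under 0.05, 0 of the listed genes among them, and 0 genes after Benjamini-Hochberg adjustment.

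Among genes of base excision and strand break repair, OGG1 differed in SW1990. OGG1, the glycosylase that removes oxidised guanine, had signals of 260 in SW1990 CD166+, 79.3 in SW1990 CD166-, 144 in Panc-1 CD166+ and 136 in Panc-1 CD166- cells. The SW1990 CD166+ value was 3.28-fold the CD166- value, and both Panc-1 values lay between them. A second OGG1 probe, annotated to another transcript, had 95.7 in SW1990 CD166+ cells and was undetected in SW1990 CD166- cells, a difference of at least 2.30-fold. In Panc-1 it gave a log2 difference of 0.16, against 0.08 for the brighter probe. The other 4 genes of the group stayed within 2-fold in both lines. LIG1, the ligase of replication and excision repair, differed by 0.28 on the log2 scale in SW1990 and by -0.54 in Panc-1. XRCC1, the scaffold of strand break repair, differed by -0.29 and 0.40. PARP1, which marks strand breaks with ADP-ribose, differed by 0.19 and -0.11, and UNG, which removes uracil, by -0.12 and -0.073.

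In the checkpoint and break-sensing group, NBN was apart in SW1990. NBN, a subunit of the complex with MRE11 and RAD50 that binds broken ends and recruits ATM, had signals of 207 in SW1990 CD166+, 72.6 in SW1990 CD166-, 209 in Panc-1 CD166+ and 194 in Panc-1 CD166- cells. The SW1990 CD166- population was thus the low one, 2.85-fold below its CD166+ counterpart, while the other 3 lay close together. A second NBN probe had 44.6 in SW1990 CD166+ cells and was undetected on the other 3 arrays, so it gives only at least 1.07-fold. A mean over the 3 NBN probes, 1 of which no array detected, was 0.81 on the log2 scale, under 2-fold. MRE11, its nuclease partner, had 187, 99.4, 164 and 166 in the same order, so SW1990 CD166- cells were again lowest, at 1.88-fold, within the 2-fold threshold. Its 3 probes gave 0.91, 0.47 and -0.26 in SW1990. ATM differed by -0.54 in SW1990 and -0.15 in Panc-1, CHEK1 by 0.051 and -0.11, and CHEK2 by -0.29 and -0.32. A second ATM probe gave -0.057 in SW1990 and -0.18 in Panc-1. A second CHEK2 probe gave -0.40 in SW1990 but 0.22 in Panc-1, so the CHEK2 probes differed in sign there.

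Genes of the Fanconi pathway went both ways in SW1990. FANCI, a subunit of the clamp that is ubiquitylated on crosslinked DNA, had signals of 551 in SW1990 CD166+, 252 in SW1990 CD166-, 400.3 in Panc-1 CD166+ and 432 in Panc-1 CD166- cells. The SW1990 CD166+ value was 2.18-fold the CD166- value. FANCC, a subunit of the core complex that carries out this ubiquitylation, was undetected in SW1990 CD166+ cells and had 81.5 in SW1990 CD166-, 62.9 in Panc-1 CD166+ and 49.0 in Panc-1 CD166- cells. It was at least 2.09-fold lower in CD166+ cells of SW1990. FANCL, the ubiquitin ligase of the complex, was at 357 and 211 in the SW1990 populations, a log2 difference of 0.76, and at 293 and 278 in Panc-1.

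The genes of homologous recombination did not differ in 1 direction either. RAD54L, a motor protein that helps strand invasion, had signals of 232 in SW1990 CD166+, 483 in SW1990 CD166-, 361 in Panc-1 CD166+ and 428 in Panc-1 CD166- cells. It was lower in CD166+ cells of both lines, by 2.08-fold in SW1990 and 1.19-fold in Panc-1. BRCA1, which loads the recombinase onto resected ends with PALB2, had log2 differences of 0.63 in SW1990 and 0.27 in Panc-1. Its second probe gave 0.71 and 0.54. PALB2 differed by 0.62 in SW1990 and 0.011 in Panc-1, and BARD1, the partner of BRCA1 in a ubiquitin ligase, by -0.46 and -0.037. RAD51C, a paralog of the recombinase, differed by 0.73 in SW1990 by its brightest probe, but probes annotated to its other transcript gave -0.11 and -0.13.

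In nucleotide excision repair, ERCC2, a helicase of the transcription factor complex that opens damaged DNA, had signals of 87.3 in SW1990 CD166+, 182 in SW1990 CD166-, 163 in Panc-1 CD166+ and 155 in Panc-1 CD166- cells. The SW1990 CD166+ population was the low one, 2.09-fold below its CD166- counterpart. XPA, which verifies the lesion, differed by 0.64 and 0.15 on the log2 scale. ERCC1, part of the nuclease that cuts on the 5′ side of the lesion, had 4 detected probes that disagreed. In SW1990 they gave log2 differences of 0.20 (the brightest), -0.42, -1.49 and 1.12, and in Panc-1 0.30, 0.61, 0.80 and 0.13. The probe at -1.49 in SW1990, ILMN_1652369, is annotated to another transcript than the other 3, but those 3, annotated to the same transcript, also ran from -0.42 to 1.12. No single SW1990 value can therefore be given for the gene. In Panc-1 the 4 values were all above 0 and within 2-fold.

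**Figure D3:**
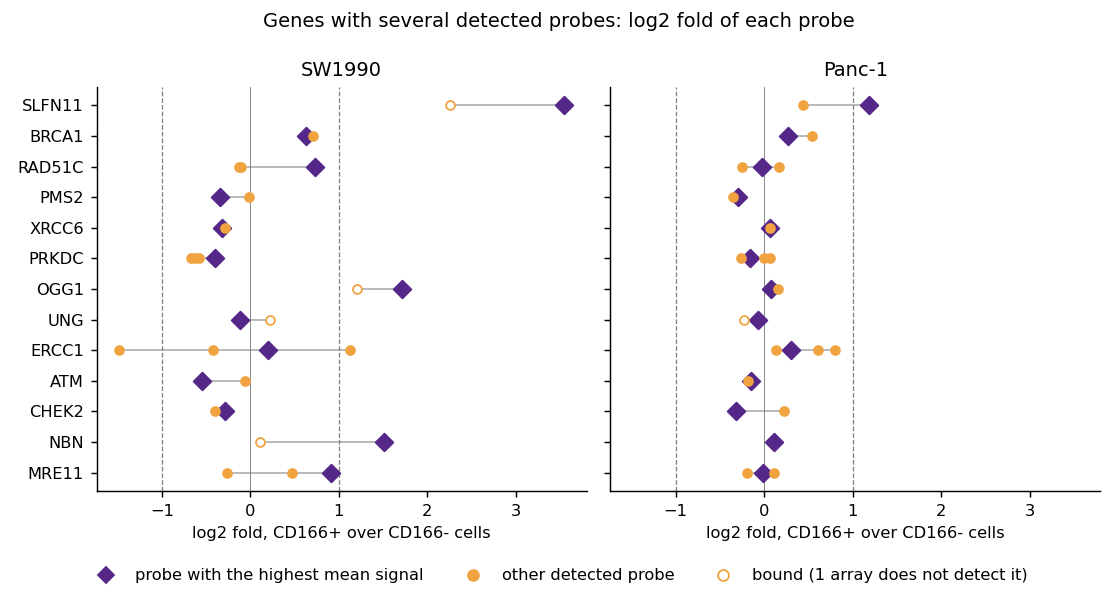
Log2 difference between CD166+ and CD166- cells for each detected probe of the 13 genes with more than 1 detected probe, in SW1990 (left) and Panc-1 (right), with dashed lines at 2-fold. Diamonds are the probe with the highest mean signal, circles the others, and open symbols bounds where 1 of the arrays did not detect the probe. The ERCC1 probes of SW1990 run from -1.49 to 1.12.

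All listed genes of mismatch repair and end joining that were detected stayed within 2-fold between the sorted populations. MSH6, which recognises mismatches, had 1691 and 1884 in the CD166+ and CD166- fractions of SW1990 and 1555 in both of Panc-1. PMS2, the nicking partner downstream, had log2 differences of -0.35 and -0.30. XRCC5 and XRCC6, the subunits of the Ku ring that caps broken ends, differed by 0.47 and -0.32 in SW1990 and by -0.20 and 0.060 in Panc-1. PRKDC, the kinase that Ku recruits, differed by -0.40 and -0.16, and its 4 probes were all below 0 in SW1990, from -0.67 to -0.40. LIG4, the ligase of end joining, was detected only in SW1990 CD166+ cells, at 42.8. MGMT, which reverses alkylated guanine directly, had 935 and 552 in the SW1990 populations and 557 and 688 in the Panc-1 populations, log2 differences of 0.76 and -0.31.

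The spread between probes of the same gene gives a measure of error, although not of biological variation. It was taken over probes detected on both arrays compared, so probes undetected on a side were left out. The pooled SD was 0.43 on the log2 scale in SW1990 (1985 genes) and 0.22 in Panc-1 (2296 genes). It was 0.47 over 9 of the genes described here in SW1990 and 0.24 over 11 in Panc-1. SLFN11 and OGG1 were not among the 9, because their second probes were undetected in SW1990 CD166- cells.

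The lines themselves were compared within each sorted population. In CD166+ cells, 4 of 32 detected genes (BRCA1, LIG1, RAD51C and SLFN11) were over 2-fold higher in SW1990 than in Panc-1, against 12.9% of 11119 genes, and 1 (ATM) was over 2-fold lower, against 14.2%. In CD166- cells, 2 of 30 (RAD51C and XRCC1) were over 2-fold higher, against 10.6% of 10694 genes, and 2 (ATM and NBN) over 2-fold lower, against 12.1%. None of these shares was far above that of all genes. In both sorted populations RAD51C alone was over 2-fold higher in SW1990, against 2.92% of 11640 genes, and ATM alone was over 2-fold lower, against 5.52%.

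RAD51C had signals of 1015 and 611 in the CD166+ and CD166- cells of SW1990 and of 262 and 268 in those of Panc-1. It was 3.87-fold higher in SW1990 in CD166+ cells and 2.28-fold higher in CD166- cells, and its other detected probes had log2 differences of 0.94 to 1.35. ATM, the kinase that responds to broken chromosomes, had 161 and 234 in SW1990 and 494 and 547 in Panc-1. It was 3.08-fold lower in SW1990 in CD166+ cells and 2.34-fold lower in CD166- cells, and a second probe gave -1.52 and -1.65 on the log2 scale. In the limma fit of the lines over both sorted populations, 84 of 10367 genes (0.81%) passed an adjusted p of 0.05 and 0 of the 30 listed genes did. ATM, LIG1, RAD51C, SLFN12 and SLFN13, 5 of the 30, had an unadjusted p under 0.05, a similar share to the 1692 of all 10367 genes. Their adjusted p by limma ran from 0.189 for RAD51C to 0.29 for LIG1. The fit used undetected signals as measured, and SLFN12 and SLFN13 were undetected in SW1990. With the floor in place, SLFN12 was at least 1.45-fold lower in SW1990 in CD166+ cells and 1.31-fold in CD166- cells. SLFN13 was at least 1.34-fold and 1.37-fold lower. By its brighter probe, SLFN11 was 3.37-fold higher in SW1990 in CD166+ cells and 1.53-fold lower in CD166- cells, the latter within 2-fold and near the floor. Its second probe gave 1.87 on the log2 scale in CD166+ cells. In CD166- cells that probe gave no order of the lines, at 37.8 and undetected in SW1990 and 40.1 in Panc-1. OGG1, NBN and FANCI had a lower value in SW1990 than in Panc-1 in CD166- cells, with log2 differences of -0.77, -1.42 and -0.78.

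**Figure D4:**
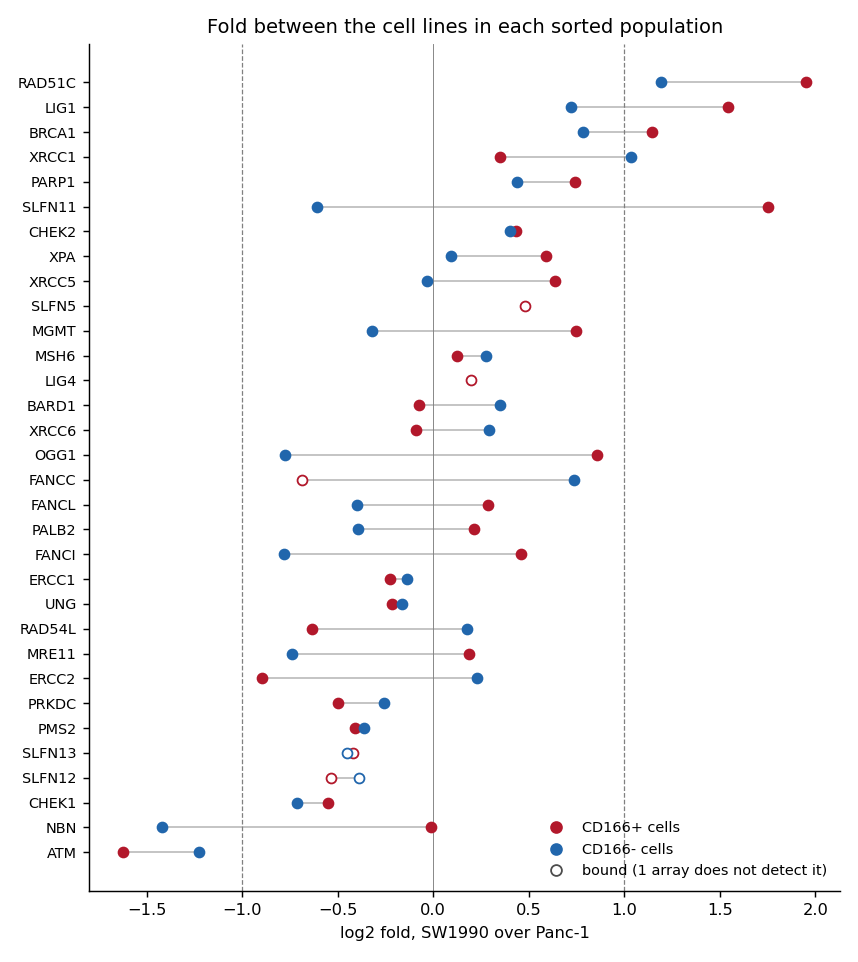
Log2 difference between SW1990 and Panc-1 in CD166+ cells (red) and CD166- cells (blue) for the 32 detected genes, with dashed lines at 2-fold and open circles for bounds. RAD51C lies beyond 2-fold at the upper end in both populations and ATM at the lower end. The SLFN11 points, from its brighter probe, lie on opposite sides of 0, within 2-fold in CD166- cells.

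Other genes of the same pathways were read from lists made for the purpose. Of 108 further repair and checkpoint genes, 100 had a probe and 88 were detected in SW1990. Past the 2-fold threshold, 9 had the higher signal in CD166+ cells and 9 the lower, against 13.6% and 14.2% of all genes, with a median log2 difference of 0.12. The lists differed in this: 2 Fanconi genes and 2 nucleotide excision genes were over 2-fold higher and 0 lower, while 0 other end-joining genes were higher and 3 of 8 (DCLRE1C, TDP1 and POLQ) lower. Counts this small do not set a list apart. In Panc-1, 0 of 87 detected genes were over 2-fold apart in either direction, with a median of -0.003. Among the higher ones in SW1990 were CDKN1A, the inhibitor of cyclin-dependent kinases, at 16.3-fold, UBE2T, the conjugating enzyme that works with FANCL, at 4.39-fold, and DDB2, which senses ultraviolet damage, at least at 3.85-fold. FAAP24, a Fanconi core subunit, was at 3.73-fold and SMUG1, a uracil glycosylase, at 2.97-fold. Among the lower ones were ABRAXAS1, the scaffold of a BRCA1 complex, at 4.38-fold, XRCC2, another recombinase paralog, at 3.38-fold, MBD4, a mismatch glycosylase, at 2.80-fold, DCLRE1C, the end-joining nuclease, at 2.75-fold, and CDC25B, a cell cycle phosphatase, at 2.60-fold. In Panc-1 the CDKN1A signals were 2652 and 2714.

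Genes of S phase and proliferation were mostly within 2-fold. Of 20, 19 were detected in each line, 0 were over 2-fold higher, and 1 (BUB1, a spindle checkpoint kinase) was lower in SW1990, by 2.56-fold, against 13.6% and 14.2% of all genes. In Panc-1, 0 were over 2-fold lower. Their medians were -0.14 in SW1990 and -0.18 in Panc-1. The topoisomerases TOP1, TOP2A and TOP2B, the enzymes hit by drugs to which SLFN11 sensitises cells, stayed within 2-fold, with log2 differences of -0.51, -0.50 and 0.76 in SW1990 and 0.88, 0.26 and 0.26 in Panc-1. Interferon-stimulated genes, a class that includes several Schlafen genes, differed between the lines. Of 14 detected, 6 were over 2-fold higher and 0 lower in CD166+ cells of SW1990 (median 0.86), against 13.6% and 14.2% of all genes, among them BST2, which tethers viruses to the cell, at 64.6-fold, MX1 at least at 16.1-fold and OAS1 at 8.72-fold, both antiviral proteins. In Panc-1, 1 (BST2) was higher and 3 (IFIT1, IFIT2 and IFIT3, named after their values were seen) were lower, against 0.598% and 0.408% of all genes, with a median of -0.36. The Panc-1 count of higher genes was 0 after the shared signal described above was subtracted. SLFN11 was therefore higher in CD166+ cells of Panc-1 while the median of these genes was below 0, which was given no test.

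The arrays were checked as a whole. Mean intensities were 325 to 413 and 15565 to 16716 probes were detected. In the CD166+ fraction the ALCAM signal was 6.20-fold (SW1990) and 5.29-fold (Panc-1) that of the CD166- fraction. Of 6 epithelial markers, 5 were detected and CDH1 was not, with sums of 8897 and 5786 in SW1990 CD166+ and CD166- cells and 13550 and 16890 in Panc-1. In SW1990, 4 of the 5 were over 2-fold higher in CD166+ cells, as SLFN11 and OGG1 were, against 13.6% of all genes. They were KRT7 at 33.8-fold, EPCAM at 3.66-fold, KRT19 at 2.51-fold and KRT18 at 2.32-fold. In Panc-1, 1 of the 5 (KRT7, at least 2.45 on the log2 scale) was over 2-fold higher, against 0.598% of all genes. There EPCAM differed by 0.72, KRT19 by -0.11, KRT18 by -0.46 and KRT8 by -0.76. Of 9 leukocyte markers only CD14 and CD68 were detected, with PTPRC and CD3E undetected, and the summed signal of all 9 was 614 and 1122 in SW1990 CD166+ and CD166- cells and 1445 and 1466 in Panc-1. Of 7 fibroblast and stellate markers COL1A1, COL1A2, PDGFRB and ACTA2 were detected on some array and COL3A1, DCN and LUM on none, with sums of 786 and 2321 in SW1990 and 614 and 537 in Panc-1. The SW1990 sum was carried by COL1A2, undetected in CD166+ cells and at 2148 in CD166- cells, while COL1A1, PDGFRB and ACTA2 went the other way, at least 5.24-, 3.16- and 7.90-fold higher in CD166+ cells. Of 5 endothelial markers PECAM1 and CDH5 were detected on some array, with sums of 116 to 148. The part of these markers in the differences above was not tested. Scaling mattered for SW1990: genes over 2-fold apart were higher in CD166+ cells in 48.9% of cases, but in 66% after median scaling, which moved the median of all genes to 0.27 and that of the listed genes to 0.57. In the deposited scaled table these medians were -0.13 and 0.18. In Panc-1 the share of higher genes was 59.4%, and it was 70.2% with an offset of 50, 75% in the scaled table and 78.6% without background correction. Between the lines it was 47.5% in CD166+ cells (64.8% after median scaling, 34.7% in the scaled table) and 46.6% in CD166- cells (33.2% in the scaled table).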

How the data were processed

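RNA of the CD166+ and CD166- fractions of both lines had been measured on 4 Illumina arrays, 1 per group, and nothing states that a population was prepared more than once, so p-values measure only the spread between these arrays. The authors deposited a bead intensity for each probe, without normalization, and a detection p-value, both made with BeadStudio 3.2.3. The authors also deposited a table of scaled intensity values, each array multiplied by 1 factor (0.857 to 1.09) to a mean of 354, which was used as an alternative. How it was scaled is not given in the sources used here.

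The unnormalized intensities of all 4 arrays were background-corrected with the neqc function of limma 3.58.1 under R 4.3.3, in which the detection p-values stand in for control probes, and were quantile-normalized after an offset of 16. Detection meant a detection p under 0.01. The annotation of the platform gave 1 gene for 30111 probes, several for 8 and none for 17196, and 27 Entrez numbers were not found in RefSeq. Where a gene had several probes the one of highest mean signal was used, and levels were not compared between probes. A gene was counted when its signals differed by over 2-fold, the threshold the study applied to these arrays, and the brighter array detected it. An undetected side was set to the lowest signal among detected probes of its array, or to its own signal if higher, and such folds are given as at least N-fold. Log2 signals of genes detected on at least 2 arrays were fitted with limma's lmFit and eBayes, with cell line and sort as terms, which pairs the 2 arrays of a line because they come from the same line, with Benjamini-Hochberg adjustment over all of them. Undetected signals entered this fit as measured, without the floor. The code of the fit was run on simulated data with the same noise level for all genes, which does not measure its power on these arrays.

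All listed genes with a probe are named, with full values for those over 2-fold apart in a line or between the lines in both sorted populations. Of each further list, up to 3 genes with the largest fold in SW1990 could be named. The genes and lists were chosen with earlier results of these data known. Alternatives were the background correction, offset, scaling, deposited scaled table, detection threshold, filter, mean over probes, treatment of undetected sides, fold threshold, subtraction of shared signal, no block, an intensity trend and the methods' t-test. Upstream sequences are from RefSeq (GRCh38.p14). The number of arrays limits the precision.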

Additional observations from a re-analysis of the deposited data

Results flagged for a closer look

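The ERCC1 probe annotated to another transcript than its 3 companions had a log2 difference between CD166+ and CD166- cells of -1.49 in SW1990 and of 0.80 in Panc-1, so it went in opposite directions in the lines. Its signals were 43.4 and 122 in SW1990 CD166+ and CD166- cells and 190 and 109 in those of Panc-1. With 1 array per group this contrast of the lines has no test, and the brightest ERCC1 probe gave 0.20 and 0.30.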

How the results depend on the processing

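No difference over 2-fold of a listed gene changed direction under any alternative. Of 1214 differences recomputed under the alternatives, 1165 moved by less than the spread between probes and 49 moved by more, and 6 could not be given. Of 768 counts over lists, 715 stayed within 1.5 times and 53 did not. A limit of all counts is that they are small, so that 1 gene near the threshold changes them.

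In SW1990, the 4 listed genes over 2-fold higher in CD166+ cells became 8 after median scaling and 2 in the deposited scaled table. Over all genes, the 1462 higher became 2220 and 917. The 4 listed genes became 11 at a threshold of 1.5-fold and 2 at 3-fold. Counts over all genes are given here for the normalizations only. SLFN11 and OGG1 were counted under every one of these settings, with SLFN11 between 2.46 and 3.83 and OGG1 between 1.13 and 2.02 on the log2 scale. The 3 listed genes over 2-fold lower became 0 without background correction, with an offset of 50, after median scaling and at 3-fold, and 1 (RAD54L) in the scaled table. Over all genes, the 1530 lower became 1022 without background correction and 1175 with an offset of 50. They became 1145 after median scaling and 1221 in the scaled table. In Panc-1, and in both lines together, the 1 higher gene, SLFN11, became 0 without background correction, with an offset of 50, in the scaled table, as a mean over probes and at 3-fold. Over all genes, the 63 higher in Panc-1 became 33 without background correction, 40 with an offset of 50 and 27 in the scaled table.

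Between the lines, the 4 listed genes higher in SW1990 in CD166+ cells became 7 after median scaling, 9 at 1.5-fold and 2 at 3-fold, and the 1 lower became 3 without the filter or with undetected sides as measured and 4 at 1.5-fold. Over all genes, the 1429 higher became 2180 after median scaling. In CD166- cells, the 2 listed genes higher became 1 without background correction, with an offset of 50, after median scaling and as a mean over probes, 0 in the scaled table and at 3-fold, and 5 at 1.5-fold. Over all genes, the 1132 higher became 684 without background correction and 792 with an offset of 50. They became 1013 after median scaling and 508 in the scaled table. The 2 listed genes lower became 1 without background correction, 0 as a mean over probes and at 3-fold, and 7 at 1.5-fold. Over all genes, the 1299 lower became 868 without background correction. In both populations, the 1 higher (RAD51C) became 0 in the scaled table, as a mean over probes and at 3-fold, and 3 at 1.5-fold. The 1 lower (ATM) became 0 as a mean over probes and at 3-fold, and 2 without the filter or with undetected sides as measured. Where calls were lost the cause was not tested, except that a higher threshold counts fewer genes by construction. The means over probes took in a probe of RAD51C and a probe of ATM that no array detected. In CD166- cells these gave log2 differences between the lines of 0.10 for RAD51C and -0.078 for ATM. The detected probes gave 1.19, 1.20 and 1.24 for RAD51C and -1.22 and -1.65 for ATM.

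The limma count stayed at 0 without the block, with an intensity trend and under the other normalizations, and without the block 55 genes had an unadjusted p under 0.05, 1 of them listed (SLFN11). Leaving out a line leaves 1 pair, which gives no test. Signal near the floor of each array limits what can be said of SLFN5, SLFN12, SLFN13 and LIG4.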
